A study of Canis lupus familiaris with 25 samples.

Results

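Nuclear-encoded genes of the respiratory chain were represented by 80 of the 24532 gene rows of the count table. Some subunits, such as CYC1 of complex III, are not among them, so values by complex concern the rows found. The rows were taken by symbol alone, as all names starting with NDUFA, NDUFB, NDUFC, NDUFS, NDUFV, UQCR, COX4 to COX8 or ATP5, and the 4 SDH genes SDHA to SDHD. They fell into 40 rows of complex I subunits, 8 NDUFAF assembly factors of complex I, 4 rows of complex II, 5 of complex III, 8 of complex IV and 15 of complex V. ATP5O and ATP5O_1 held equal counts in every library and were counted once where stated, which left 79 rows. NDUFA1_1 was a second locus of NDUFA1 with its own counts. ATP5S matched by name although it is a coupling factor-related gene and not an ATP synthase subunit. NDUFA4 and its paralog NDUFA4L2 were counted with complex I by name, although NDUFA4 is now regarded as a subunit of complex IV. The data were 3′ RNA-Seq counts from formalin-fixed, paraffin-embedded archival tumors of pet dogs (Canis lupus familiaris): 10 hepatoid gland adenomas (HGA), 11 primary apocrine gland anal sac adenocarcinomas (AGASAC) and 4 metastases from the sublumbal lymph nodes of the dogs of primary tumors 1 to 4. The HGA is a benign tumor of the perianal hepatoid glands, and the AGASAC is a malignant tumor of the anal sac glands. No group was treated, and no gene was modified.

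The HGA came from 4 intact males, 1 neutered male, 2 intact females and 3 neutered females aged 8 to 14 years (median 12). The primary AGASAC came from 6 neutered males, 2 intact females and 3 neutered females aged 8 to 12.5 years (median 10), so intact males were present in the HGA alone. The metastases came from 2 neutered males, 1 intact female and 1 neutered female aged 8 to 10 years. Breeds differed between dogs. Sections were taken from whole blocks after tumor-adjacent tissue had been removed, so each library averages over all cells of a section, and a smaller number of cells of a type cannot be told apart from less RNA per cell. Nothing in the labels states that every HGA came from another dog. The p-values measure the spread between these samples. They measure the spread between dogs only if each HGA came from a different dog.

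Oxidative phosphorylation is carried out by protein complexes of the inner mitochondrial membrane. Complex I oxidizes NADH and complex II oxidizes succinate, and both pass electrons to coenzyme Q. Complex III hands the electrons on to cytochrome c, complex IV transfers them to oxygen, and complex V uses the resulting proton gradient to make ATP. Most subunits are encoded in the nucleus and a minority in mitochondrial DNA. The latter were not analysed here, so the values concern nuclear transcripts only.

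Counts on genes ranged from 1562347 to 6389555 per HGA library (median 2506085), from 2581453 to 4218340 per primary tumor (median 2950459) and from 2857541 to 3289546 per metastasis. The share of RNA fragments above a set length (DV200, a measure of RNA quality) was 70.5 to 92.7% in the HGA and 70.2 to 84.4% in the primary tumors. Tissue markers separated the tumor types: the summed level of the luminal keratins KRT7, KRT8, KRT18 and KRT19 was 1.31 to 152 CPM (normalized counts scaled to a fixed library total) in the HGA and 1768 to 4117 CPM in the primary tumors. KRT5 and KRT14, of basal and squamous epithelium, had medians of 847 and 3421 CPM in HGA. Their medians in primary tumors were 0.695 and 0.322 CPM. Both passed the count filter through the HGA, so their p-values are not used. KRT10 of the same list did not pass (log2FC 0.55, SE 0.43), and KRT1 was too low to be tested. The fat cell marker ADIPOQ was lower in HGA, and LEP and UCP1 were too low to be tested. The single most abundant gene took 2.33 to 11.2% of all counts in the HGA and 1.37 to 3.39% in the primary tumors. The library HGA 10 stood apart in the respiratory chain, as described below, and in other genes. The lipid droplet gene CIDEA was at 392 CPM in HGA 10 and at 1438 CPM in the next lowest HGA. HGA 10 was the only sample of its RNA extraction batch and the only HGA from a neutered male. HGA 3 was also the only HGA of its batch, beside 1 primary tumor. Sequencing files carried names of 2 series, A with 9 HGA and 3 primary tumors and B with HGA 10 and 7 primary tumors (1 primary tumor's series was not used here), so the series and the tumor type can hardly be told apart, and HGA 10 was the only HGA in the series of most primary tumors.

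Respiratory chain transcripts were higher in HGA than in primary AGASAC. Of the 77 member rows with enough counts to be tested, 49 were higher in HGA, none was lower and 28 did not pass (edgeR quasi-likelihood test, Benjamini-Yekutieli (BY) adjusted p of at most 0.05). Across all 12070 genes tested, 16.0% were higher and 14.8% were lower. The log2 fold change (log2FC) of HGA over primary tumor was above 0 for 72 of the 77 rows, with a median of 0.81, whereas the median over all genes was -0.03. A fold change of at least 2, or log2FC of 1, was reached by 27 of the 77 tested rows in addition to the adjusted p, and by 12.6% of all genes tested. Among genes past the adjusted p alone, these were 27 of 49 members and 1523 of 1936 genes. In 14 members every HGA library exceeded every primary tumor, a separation seen upward in 4.62% of all genes. Scaling by library size alone, which shifted the median of all genes to -0.32, gave 36 members higher and 1 lower (NDUFAF7), with 1339 of all genes higher and 2717 lower in place of 1936 and 1789. The 14 separated members were NDUFS7, NDUFS8, NDUFV2, NDUFB6, SDHC, UQCR11, COX5B, COX8A, ATP5A1, ATP5B, ATP5D, ATP5G1, ATP5J and ATP5L.

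**Figure D1:**
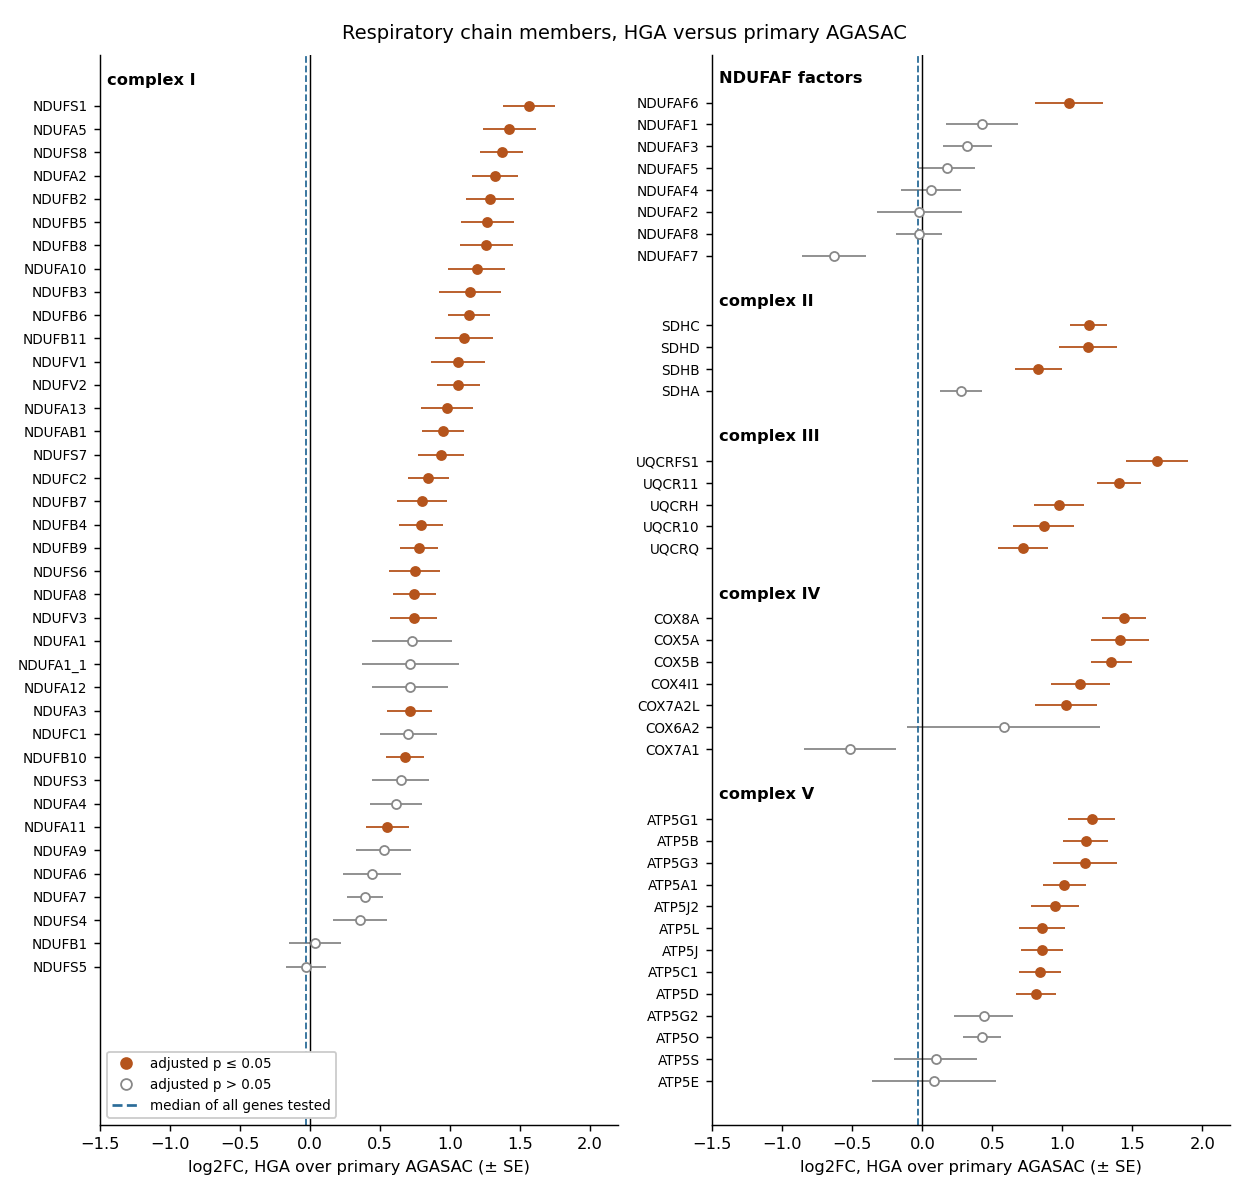
Log2FC of HGA over primary AGASAC with its standard error (horizontal bars) for 75 tested members, counting ATP5O and ATP5O_1 once, grouped by complex; filled points have a BY-adjusted p of at most 0.05 and the dashed line is the median of all genes tested. Filled points lie to the right of 0 in every complex, while 7 of the 8 NDUFAF assembly factors are open and spread around it.

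The summed CPM of the members of each complex showed the same direction in every complex, with unequal size. The members together summed to 19557 ± 3415 CPM (SD, n = 10) in HGA and 10327 ± 1447 CPM (SD, n = 11) in the primary tumors, a ratio of 1.89. Complex IV had a ratio of the means of 2.38 and complex III of 2.21, followed by complex V at 1.97, complex II at 1.93 and complex I at 1.78. The NDUFAF assembly factors had a ratio of 1.17, and 2 of 10 HGA libraries exceeded all primary tumors. For complexes II, IV and V all 10 HGA exceeded every primary tumor, and for complexes I and III 9 of 10 did. The exception in both was HGA 10, whose complex I sum of 6004 CPM lay below the 6567 CPM of primary tumor 11 and whose complex III sum of 783 CPM lay within the primary tumors' range of 617 to 917 CPM. These sums were not tested.

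**Figure D2:**
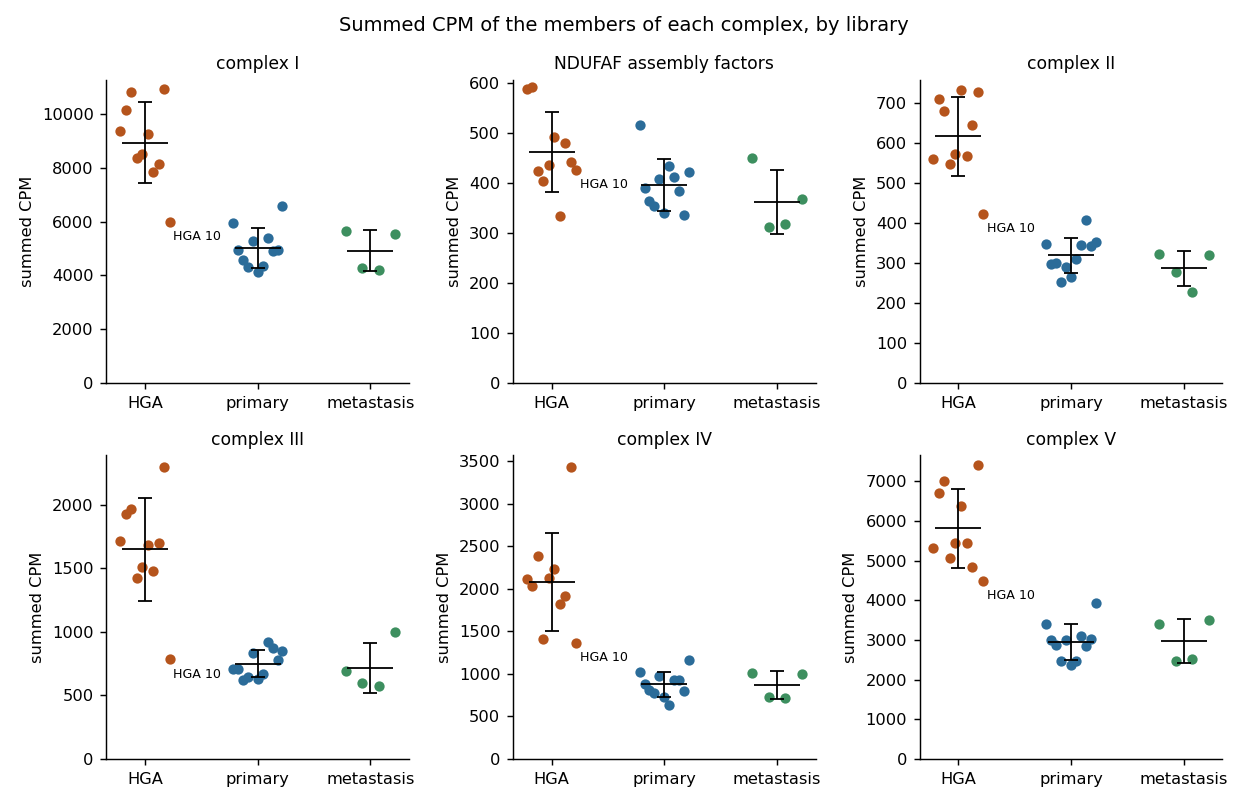
Summed CPM of the members of each complex (vertical axes, starting at 0) in each library of the HGA, primary AGASAC and metastasis groups; points are libraries and bars are the mean ± SD. HGA libraries lie above the AGASAC libraries in the 5 complexes except for HGA 10 in complexes I and III, and the groups overlap for the NDUFAF assembly factors.

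In complex I, 26 of 39 tested subunits were higher in HGA, none was lower, and the median log2FC was 0.78. NDUFS1, the iron-sulfur subunit that carries electrons from the NADH site, had a lowest, median and highest level of 48.0, 110 and 134 CPM in HGA and of 23.3, 32.5 and 61.5 CPM in the primary tumors. Its groups overlapped only through HGA 10, the lowest HGA. The log2FC was 1.56 (SE 0.19, edgeR BY-adjusted p = 3.20e-06), the largest of the complex. NDUFS8, an iron-sulfur subunit near the coenzyme Q site, averaged 166 ± 42.1 CPM (SD, n = 10) in HGA and 64.3 ± 11.0 CPM (SD, n = 11) in primary tumors without overlap (log2FC 1.37, SE 0.15, edgeR BY-adjusted p = 1.06e-06). The accessory subunit NDUFA5 averaged 207 ± 58.7 CPM in HGA and 77.5 ± 25.1 CPM in primary tumors (log2FC 1.42, SE 0.19, edgeR BY-adjusted p = 1.69e-05).

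NDUFV1, a core subunit that binds NADH and the flavin, ranged over 70.7, 126 and 189 CPM (lowest, median, highest) in HGA and over 31, 57.4 and 106 CPM in the primary tumors, with a log2FC of 1.06 (SE 0.19, edgeR BY-adjusted p = 0.000863). The iron-sulfur subunits NDUFV2 and NDUFS7 also passed. Among the accessory subunits the NDUFB series of the membrane arm had 10 of 11 rows higher and a median log2FC of 1.1. The one NDUFB row that did not pass was NDUFB1, at 54.0 ± 11.9 CPM in HGA and 52.7 ± 17.3 CPM in primary tumors. Of the NDUFA series 8 of 15 tested passed, with a median of 0.72. NDUFS5, an accessory subunit on the intermembrane side, was at 268, 396 and 502 CPM (lowest, median, highest) in HGA and at 285, 401 and 529 CPM in the primary tumors, so both groups covered the same range (log2FC -0.03, SE 0.14). The rows NDUFA1 (log2FC 0.73, SE 0.29) and NDUFA1_1 (log2FC 0.72, SE 0.34) had near-equal fold changes and wide errors; since reads that mapped to several places were shared evenly among them, levels of near-identical copies are uncertain.

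The NDUFAF assembly factors, which help to build complex I and leave it afterwards, did not follow its subunits as a group: 1 of 8 was higher in HGA and the median log2FC was 0.12. That one, NDUFAF6, averaged 37.0 ± 13.0 CPM in HGA and 17.9 ± 7.09 CPM in primary tumors (log2FC 1.05, SE 0.24, edgeR BY-adjusted p = 0.00996). NDUFAF7, a mitochondrial methyltransferase, had the lowest log2FC of all members, with 16.9 ± 6.56 CPM in HGA and 26.3 ± 7.92 CPM in primary tumors (log2FC -0.63, SE 0.23, edgeR BY-adjusted p = 0.261). The other 6 factors had a log2FC between -0.03 and 0.43. Whether factors and subunits differ was not tested.

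In complex II, 3 of the 4 subunits were higher in HGA. SDHC, a membrane anchor, was at 235, 265 and 372 CPM (lowest, median, highest) in HGA and at 85.5, 124 and 157 CPM in the primary tumors. Every HGA thus exceeded every primary tumor, and the log2FC was 1.19 (SE 0.13, edgeR BY-adjusted p = 9.58e-07). SDHD, the other anchor, was at 52.4, 163 and 237 CPM in HGA and at 41.4, 78.6 and 95.8 CPM in the primary tumors, with HGA 10 alone inside the primary range (log2FC 1.18, SE 0.21, edgeR BY-adjusted p = 0.000577). SDHB, the iron-sulfur subunit, averaged 81.7 ± 23.3 CPM in HGA and 46.1 ± 10.2 CPM in primary tumors (log2FC 0.83, SE 0.17, edgeR BY-adjusted p = 0.00253). SDHA, the flavoprotein that oxidizes succinate, was at 67.3, 91.4 and 134 CPM in HGA and at 47.6, 80.3 and 104 CPM in primary tumors. These groups overlapped over most of their range, and SDHA did not pass (log2FC 0.27, SE 0.15, edgeR BY-adjusted p = 1; with library size alone as scaling its log2FC was -0.01).

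Complex III was the only complex in which all members passed, 5 of 5, with a median log2FC of 0.97. UQCRFS1, the Rieske iron-sulfur protein, had the highest log2FC of all members at 1.67 (SE 0.22, edgeR BY-adjusted p = 1.13e-05), a fold of 3.19. Its HGA values were 76.0, 369 and 545 CPM (lowest, median, highest) and its primary tumor values 86.4, 114 and 174 CPM. HGA 10, at 76.0 CPM, was below every primary tumor, while the next HGA stood at 320 CPM and thus above all of them. UQCR11, a small subunit, was at 330, 425 and 567 CPM in HGA and at 102, 157 and 246 CPM in primary tumors without overlap (log2FC 1.40, SE 0.16, edgeR BY-adjusted p = 1.16e-06). UQCRH, the hinge protein beside cytochrome c1, averaged 375 ± 109 CPM in HGA and 191 ± 36.5 CPM in primary tumors (log2FC 0.97, SE 0.18, edgeR BY-adjusted p = 0.000801). The small subunits UQCR10 and UQCRQ passed with a log2FC of 0.87 and 0.72. The rule left out CYC1, which encodes cytochrome c1 of the same complex and had a log2FC of 1.497 (SE 0.19, edgeR BY-adjusted p = 7.08e-06).

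In complex IV, 5 of 7 tested members were higher in HGA, and the median log2FC of 1.13 was the highest among the complexes. All 5 exceeded a log2FC of 1. COX8A, a small structural subunit, was at 253, 459 and 704 CPM (lowest, median, highest) in HGA and at 138, 156 and 223 CPM in the primary tumors, without overlap (log2FC 1.44, SE 0.16, edgeR BY-adjusted p = 9.62e-07). COX5B, which binds zinc, was at 591, 744 and 1241 CPM in HGA and at 233, 315 and 393 CPM in the primary tumors. It had the lowest adjusted p of all members (log2FC 1.35, SE 0.14, edgeR BY-adjusted p = 6.48e-07). COX5A averaged 114 ± 44.6 CPM in HGA and 42.9 ± 10.4 CPM in primary tumors (log2FC 1.41, SE 0.21, edgeR BY-adjusted p = 5.44e-05). COX4I1, the common form of the subunit through which ATP regulates the enzyme, averaged 623 ± 256 CPM in HGA and 286 ± 76.1 CPM in primary tumors (log2FC 1.13, SE 0.21, edgeR BY-adjusted p = 0.00114). COX7A2L, which joins complexes III and IV into supercomplexes, had a log2FC of 1.03 (SE 0.22, edgeR BY-adjusted p = 0.00522).

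None of the isoforms of restricted tissue or state passed. COX7A1, the form of muscle and brown fat, was at 5.46, 19.5 and 38.3 CPM (lowest, median, highest) in HGA and at 8.34, 30.2 and 45.1 CPM in the primary tumors (log2FC -0.52, SE 0.33, edgeR BY-adjusted p = 1). COX6A2, the form of heart and skeletal muscle, stayed at or below 11.4 CPM in HGA and 8.61 CPM in primary tumors (log2FC 0.58, SE 0.69, edgeR BY-adjusted p = 1). Skeletal muscle was present in some AGASAC sections. The sum of 9 muscle markers was 3.49 to 26.9 CPM in HGA and 2.11 to 7.30 CPM in metastases. In primary tumors it was 8.87 to 904 CPM, and over 100 CPM in 6 of 11. Of the 9 markers only 2, ACTA1 and MYLPF, were tested against primary tumors. Their medians were 0 and 0.655 CPM in HGA and 62.9 and 15.3 CPM in primary tumors. Both passed the count filter through the primary tumors, so their p-values are not used. The part of muscle in the COX7A1 and COX6A2 values was not tested. COX4I2, a form linked to low oxygen, reached at most 29 counts in any HGA and 13 counts in any primary tumor and was too low to be tested. NDUFA4L2, a paralog of NDUFA4 that responds to low oxygen, was likewise not tested, with 30.1 CPM in HGA 4 and at most 3.84 CPM in the other HGA. The common form NDUFA4 averaged 511 ± 125 CPM in HGA and 334 ± 110 CPM in primary tumors (log2FC 0.61, SE 0.18, edgeR BY-adjusted p = 0.0809).

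In complex V, the ATP synthase, 9 of 14 tested rows were higher in HGA with a median log2FC of 0.85. ATP5B, the catalytic beta subunit, was at 1142, 1687 and 2176 CPM (lowest, median, highest) in HGA and at 500, 714 and 1064 CPM in the primary tumors. The lowest HGA thus stood above the highest primary tumor, and the log2FC was 1.17 (SE 0.16, edgeR BY-adjusted p = 2.10e-05). ATP5A1, the alpha subunit, averaged 627 ± 154 CPM in HGA and 312 ± 57.2 CPM in primary tumors without overlap (log2FC 1.01, SE 0.15, edgeR BY-adjusted p = 8.62e-05). The gamma and delta subunits of the catalytic head, ATP5C1 and ATP5D, passed with a log2FC of 0.84 and 0.81.

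The genes ATP5G1, ATP5G2 and ATP5G3 encode the same c subunit of the membrane ring; whether their fold changes differ was not tested. ATP5G1 averaged 539 ± 138 CPM in HGA and 234 ± 52.6 CPM in primary tumors (log2FC 1.21, SE 0.17, edgeR BY-adjusted p = 2.87e-05). ATP5G3 averaged 634 ± 244 CPM and 284 ± 77.8 CPM (log2FC 1.16, SE 0.23, edgeR BY-adjusted p = 0.00200). ATP5G2 averaged 166 ± 66.8 CPM and 123 ± 41.4 CPM and did not pass (log2FC 0.44, SE 0.21, edgeR BY-adjusted p = 0.902); HGA 10, the lowest HGA for ATP5G3 at 198 CPM, was the highest for ATP5G2 at 337 CPM. Of the remaining rows, ATP5O, the stalk subunit that confers oligomycin sensitivity, had a log2FC of 0.42 (SE 0.14, edgeR BY-adjusted p = 0.127). The epsilon subunit ATP5E, at 35.2 ± 29.4 CPM in HGA and 33.1 ± 19.4 CPM in primary tumors, varied widely within HGA, from 1.26 to 106 CPM. ATP5I was close to absent from the counts, with at most 2 in any library, and was not tested.

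**Figure D3:**
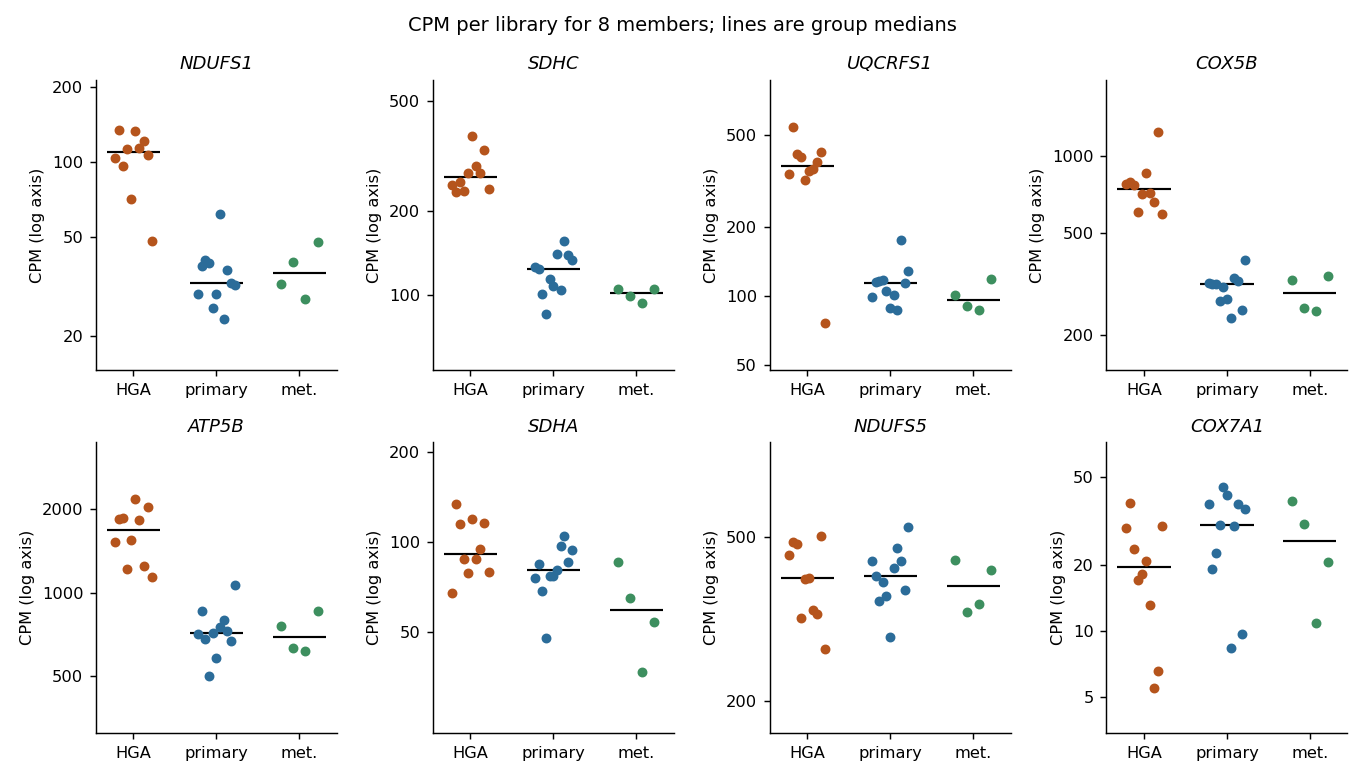
CPM of 8 members per library on logarithmic axes, with lines at the group medians. For NDUFS1, SDHC, UQCRFS1, COX5B and ATP5B the HGA lie above the primary tumors and metastases with the exception of HGA 10 in NDUFS1 and UQCRFS1, whereas the 3 groups overlap for SDHA, NDUFS5 and COX7A1.

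The HGA libraries were not alike. Of the 49 members that passed, HGA 6 exceeded all primary tumors in 49, HGA 9 in 48 and HGA 1 and HGA 3 in 47. The count was 39 to 45 in HGA 2, HGA 4, HGA 5, HGA 7 and HGA 8, and 19 in HGA 10. The 49 had passed on these same libraries, so high counts follow from that choice. Such counts were not taken for other genes. HGA 10 was the lowest HGA in 36 of 76 members and HGA 9 the highest in 23. Among the primary tumors, number 11 was the highest in 31 members and number 6 the lowest in 21. HGA 10 had 2525485 counts and a DV200 of 72.8%, both close to the medians of the HGA. Without HGA 10 the log2FC of UQCRFS1 was 1.80, that of NDUFS1 was 1.65 and the number of higher members was 50. Of all genes, 2111 were then higher and 2071 lower, in place of 1936 and 1789.

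The difference was also examined within subsets of the samples. Within RNA extraction batches 5, 6 and 8, with 2 or 3 samples per tumor type each, the median log2FC of the members was 0.97, 1.11 and 0.75, and 70 of 77, 74 of 78 and 70 of 78 members were above 0. At this size 0, 1 and 0 members passed the BY adjustment, while 1.29% to 2.64% of all genes were higher. An unadjusted edgeR p under 0.05 was found for 42, 55 and 40 members, and for 25.7%, 36.7% and 33.7% of all genes tested. Batch 7 held 1 sample of each tumor type and was not fitted alone, and batches 4 and 9 held 1 tumor type. With the extraction batch as a covariate (9 HGA and 9 primary tumors) 53 of 77 members and 15.2% of all genes were higher. Within file naming series A (9 HGA, 3 primary tumors) 21 of 78 members passed, all higher, with a median log2FC of 0.87, and 8.53% of all genes were higher. In neutered dogs alone (4 HGA, 9 primary tumors) 16 of 78 passed, all higher, with a median log2FC of 0.73, and 7.43% of all genes were higher. Without the 6 primary tumors with over 100 CPM of muscle markers 24 of 78 passed, all higher, with a median of 0.74, and 11.3% of all genes were higher. Endothelial markers moved with the tumor type too: PECAM1, CDH5 and VWF summed to 166 to 476 CPM in HGA and 45.2 to 207 CPM in primary tumors, CDH5 and VWF being higher in HGA, and their part in the result was not tested. Markers of macrophages, fibroblasts, smooth muscle and of B and T cells included none that passed.

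Against the 4 metastases the members again stood higher in HGA, with fewer past the test. Of 78 tested rows 20 were higher and none was lower, where 8.62% of the 13195 genes tested were higher and 7.86% lower. The median log2FC of the members was 0.89, and that of all genes was 0.02. By complex, 13 of 39 rows of complex I passed, 0 of 8 NDUFAF factors, 1 of 4 in complex II, 2 of 5 in complex III, 2 of 8 in complex IV and 2 of 14 in complex V. All 20 were among the 49 of the primary tumor comparison (40.8% of the 49), but both comparisons use the same HGA. SDHC was at 105, 99.1, 93.3 and 105 CPM in metastases 1 to 4, below the lowest HGA of 235 CPM (log2FC 1.45, SE 0.19, edgeR BY-adjusted p = 0.000309). UQCRFS1 was at 101, 90.7, 86.9 and 119 CPM, with HGA 10 again below all of them (log2FC 1.85, SE 0.36, edgeR BY-adjusted p = 0.00899). COX5B was at 328, 256, 249 and 339 CPM, below the lowest HGA of 591 CPM (log2FC 1.39, SE 0.24, edgeR BY-adjusted p = 0.00328). ATP5A1 had no overlap but fell just short of the threshold (log2FC 0.96, SE 0.24, edgeR BY-adjusted p = 0.0504). The number past the test depended on single libraries. It was 38 without HGA 10, 11 without metastasis 1, and 6 without metastasis 2 or without metastasis 3. The number of all genes higher moved the same way, from 1137 to 1455 without HGA 10. It fell to 750, 771 and 721 without metastasis 1, 2 and 3.

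The 4 metastases were set against the matched primary tumors to ask whether the respiratory chain changes with spread to the lymph node. None of 76 tested members passed, and none had an unadjusted edgeR p under 0.05; over all 12629 genes tested 0% passed, and 145 had an unadjusted p under 0.05. DESeq2 called 0 members too, while of 22156 genes it called 1 higher and 4 lower. The log2FC of metastasis over primary tumor ranged from -0.33 to 0.44 with a median of -0.01. In this fit, which had no dog term, the standard error was 0.18 for SDHC, 0.17 for UQCRFS1 and 0.19 for COX5B. These p-values thus do not show that the levels are equal. With the dog as a block, 0 members passed and 0 had an unadjusted edgeR p under 0.05. Of all 12629 genes, 0 were then higher and 1 was lower, and 491 had an unadjusted p under 0.05. The dogs did not move together. The sum of all members went from 11946 CPM in the primary tumor to 11542 CPM in the metastasis in dog 1, from 10236 to 8685 CPM in dog 2, from 9526 to 8579 CPM in dog 3 and from 8811 to 11750 CPM in dog 4. Dog 4 alone was higher in the metastasis in every complex, by a log2 ratio of 0.35 in complex II to 0.62 in complex III. ATP5E had the highest log2FC (0.44, SE 0.27), with 62.5, 39.1, 36.8 and 35.5 CPM in the metastases of dogs 1 to 4 and 42.7, 20.8, 34.5 and 29.9 CPM in their primary tumors, while NDUFS4, a late-joining subunit of complex I, had the lowest (-0.33, SE 0.24).

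**Figure D4:**
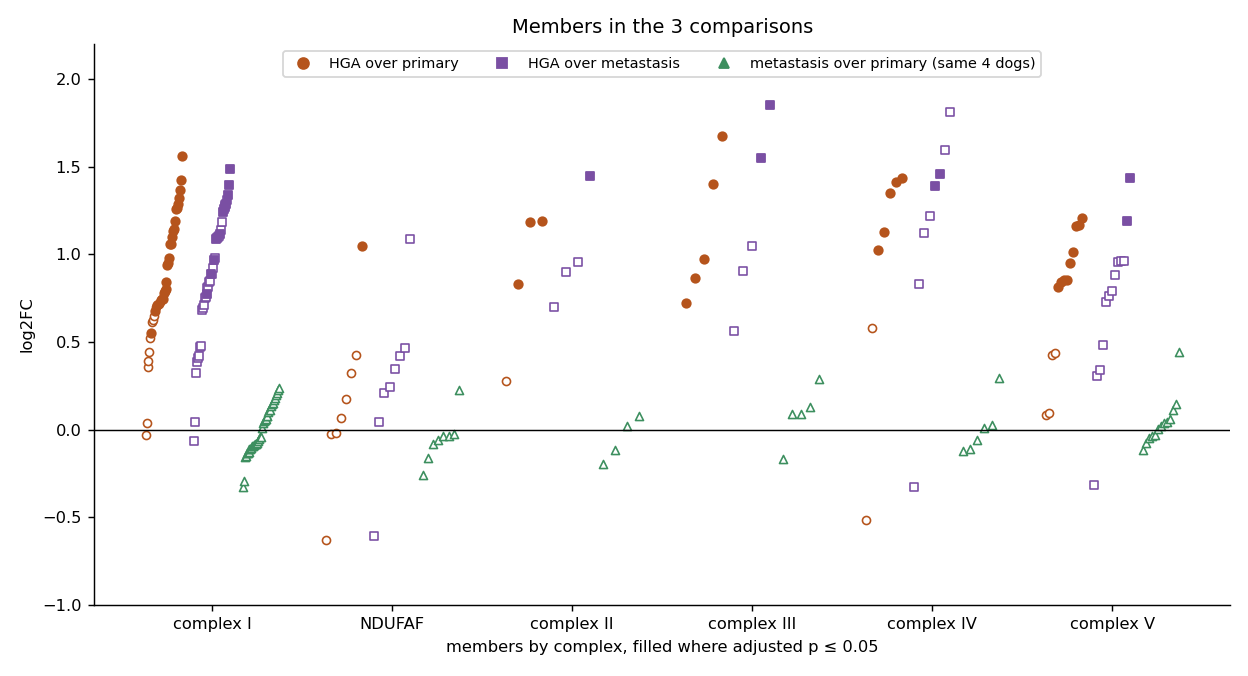
Log2FC of the members by complex in 3 comparisons: HGA over primary AGASAC (circles), HGA over metastasis (squares) and metastasis over primary tumor of the same 4 dogs (triangles); filled symbols have a BY-adjusted p of at most 0.05. Circles and squares lie mostly above 0, with the HGA shared by both, and the triangles lie between -0.33 and 0.44 with none filled.

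Genes that feed, assemble or accompany the chain were read from lists outside the symbol rule; the counts stand beside 16.0% of all genes tested that were higher and 14.8% that were lower. For HGA over primary AGASAC, 8 of 13 electron carriers and coenzyme Q genes were higher and none was lower (median log2FC 0.99). ETFDH, which passes electrons from fatty acid oxidation to coenzyme Q, was at 89.9, 232 and 297 CPM (lowest, median, highest) in HGA and 21.9, 40.4 and 88.2 CPM in primary tumors, without overlap (log2FC 2.33, SE 0.24, edgeR BY-adjusted p = 2.43e-07). Its partner ETFB (log2FC 1.99, SE 0.21) and cytochrome c, CYCS (log2FC 1.61, SE 0.22), were higher as well. Of the 9 complex I assembly factors without an NDUFAF name, 5 were higher and none was lower. ACAD9, a factor that is also an acyl-CoA dehydrogenase, was at 139, 145 and 291 CPM in HGA and 16.3, 25.8 and 34.5 CPM in primary tumors (log2FC 2.75, SE 0.18, edgeR BY-adjusted p = 2.57e-10). TMEM126B, its partner in the assembly of the membrane arm, averaged 47.4 ± 26.1 CPM and 6.40 ± 2.76 CPM (log2FC 2.88, SE 0.32, edgeR BY-adjusted p = 1.33e-06). Of the 22 assembly factors of complexes II to V, 5 were higher, 2 were lower and 15 did not pass, shares near those of all genes. SDHAF1, which helps to insert the iron-sulfur clusters of SDHB, averaged 48.2 ± 13.6 CPM in HGA and 144 ± 36.3 CPM in primary tumors, without overlap, opposite in direction to SDHB itself (log2FC -1.58, SE 0.19, edgeR BY-adjusted p = 3.29e-06).

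Upstream of the chain, 10 of 13 tested enzymes of the tricarboxylic acid (TCA) cycle were higher and 1 was lower, with a median log2FC of 1.07. Citrate synthase, CS, was at 201, 361 and 1065 CPM (lowest, median, highest) in HGA and 65.9, 98.8 and 139 CPM in primary tumors (log2FC 2.09, SE 0.25, edgeR BY-adjusted p = 2.47e-06), and the lower one was IDH2, a mitochondrial isocitrate dehydrogenase (log2FC -1.20, SE 0.27, edgeR BY-adjusted p = 0.00710). Of the pyruvate dehydrogenase complex, its kinases and the pyruvate carrier, 8 of 10 were higher and 1 was lower. Of the kinases that switch pyruvate dehydrogenase off, PDK4 (log2FC 4.47, SE 0.66), PDK1 (log2FC 3.33, SE 0.35) and PDK3 (log2FC 2.93, SE 0.24) had the largest values of the list, while PDK2 did not pass (log2FC 0.05, SE 0.27). PDK4 varied from 29.9 to 739 CPM in HGA and from 1.38 to 55.5 CPM in primary tumors, and the lower gene was the carrier subunit MPC1 (log2FC -1.55, SE 0.35, edgeR BY-adjusted p = 0.00805). Of 21 membrane carriers and import genes 13 were higher and none was lower, among them the ADP/ATP carrier SLC25A5 (log2FC 1.92, SE 0.20, edgeR BY-adjusted p = 5.74e-07).

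The mitochondrial ribosome, which makes the subunits encoded in mitochondrial DNA, had 30 of 76 genes higher and none lower, with a median log2FC of 0.58. Of 13 tested regulators of mitochondrial biogenesis 3 were higher and 1 was lower, near the shares of all genes, and the median was -0.02. PPARGC1B, a coactivator of nuclear receptors, was at 21.4, 30.4 and 50.9 CPM (lowest, median, highest) in HGA and 2.05, 4.08 and 15.2 CPM in primary tumors (log2FC 2.13, SE 0.34, edgeR BY-adjusted p = 0.000193). Its relative PPARGC1A had no count in any HGA, where 3 counts correspond to at most 1.88 CPM, and 0.597 to 16.4 CPM in the primary tumors. It was too low to be tested against primary tumors. In the metastases PPARGC1A was at 4.12 to 21.9 CPM. It entered the comparison of HGA with metastases through the metastases alone, so its p-value there is not used. TFB2M, a mitochondrial transcription factor (log2FC 1.07), and the orphan receptor ESRRA (log2FC 0.80) were higher, and GABPB1, part of a factor that binds promoters of respiratory genes, was lower (log2FC -1.19, SE 0.29, edgeR BY-adjusted p = 0.0175). Of the 8 genes found from a list of uncoupling and brown fat genes, 3 were tested against primary tumors and 1 was higher. That one was CIDEA, a lipid droplet protein, at 392 to 2391 CPM in HGA with 1 count in all primary tumors together. CIDEA thus passed the count filter through the HGA alone. UCP2, an inner membrane carrier, averaged 40.2 ± 27.4 CPM in HGA and 32.6 ± 18.6 CPM in primary tumors (log2FC 0.30, SE 0.38). Between metastases and matched primary tumors no gene of any of these lists passed.

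**Figure D5:**
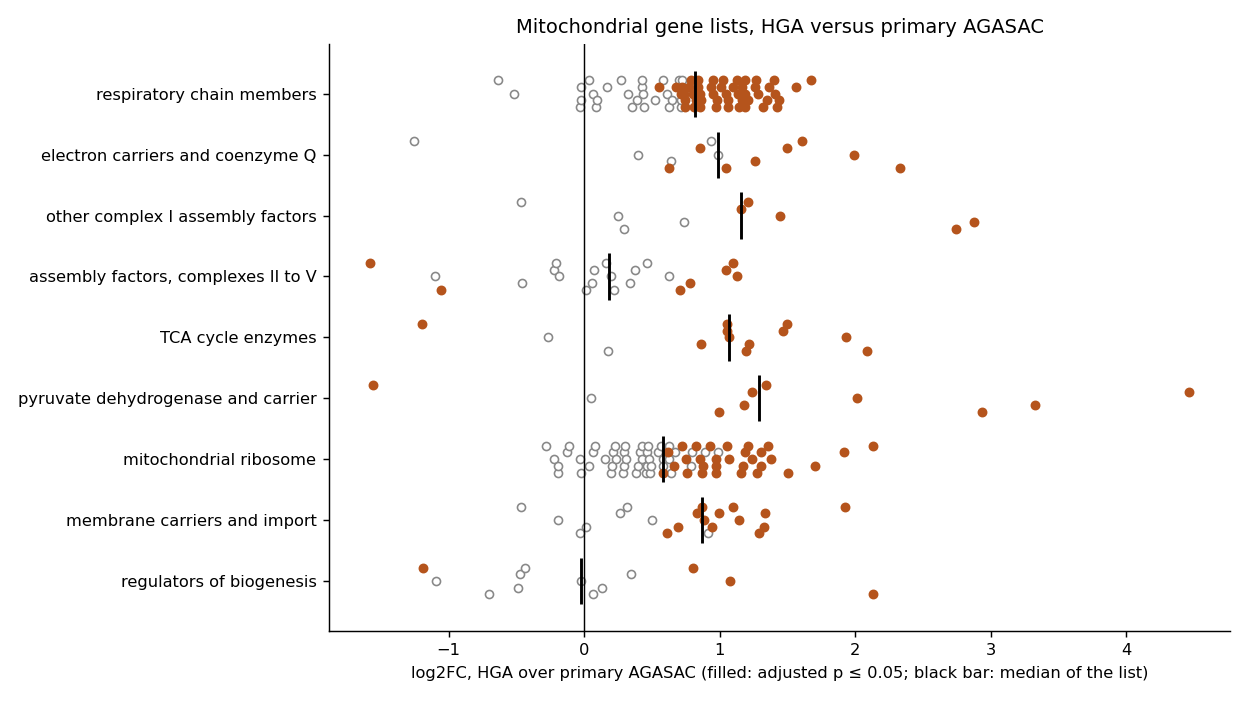
Log2FC of HGA over primary AGASAC for the members (counted once) and for 8 related lists; each point is a gene, filled points have a BY-adjusted p of at most 0.05 and black bars are list medians. Most lists have medians between 0.58 and 1.29, while the assembly factors of complexes II to V (0.18) and the regulators (-0.02) lie near 0.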

How the data were processed

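QuantSeq 3′ libraries of 25 tumors were analysed. Per the labels and the study's methods, the authors trimmed reads with cutadapt, aligned them to CanFam3.1 with STAR and counted them with featureCounts, in a second round with genes extended by 2 kilobases at the 3′ end; multi-mapped reads were shared evenly over their locations, so near-identical copies are uncertain. The deposited raw counts per gene were used; the 25 columns of normalized counts and the authors' fold changes and p-values were not. Tool versions are not given in the sources used here.

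Counts were tested with edgeR 4.0.16 (quasi-likelihood test, TMM factors, filterByExpr with a minimum count of 10) on all genes, with Benjamini-Yekutieli adjustment over all of them, the study's choice, at 0.05; DESeq2 1.42.0 was an alternative. HGA were compared with the 11 primary tumors and with the 4 metastases, and metastases with primary tumors 1 to 4 of those dogs, without a dog term. CPM used TMM factors over all 25 libraries. Same-dog pairing comes from the labels: deviations of metastasis and primary tumor from their group means correlated at 0.409 to 0.657 in 4 of 4 dogs. No 2 libraries agreed within sampling noise. Extraction batches were taken from the study's sample list. Fits were tested on simulated data.

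Named genes were the 3 passing members with the largest absolute log2FC per complex, the SDH genes, catalytic and isoform members, up to 5 more per other comparison and up to 3 per related list; NDUFS5, NDUFB1, NDUFAF7, NDUFS4, COX7A2L and further complex I, III and V rows, and CYC1, TFB2M, ESRRA, PPARGC1A and PDK2, were named after their values were seen. Members and lists were chosen with earlier results of these data known. Of the members named by rule, values for UQCRC1 and other symbols not among the 80 rows are not analysed here, and the values of 1 member that enters the counts are not reported here.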

Additional observations from a re-analysis of the deposited data

Results flagged for a closer look

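Values of 6 named members lay far from the other samples of their group (Dixon's test on log2(CPM + 1), 52 group values checked, of which chance flags about 1 in 20). HGA 10 was far below the other HGA in 3 genes. SDHD was at 52.38 CPM in HGA 10 and at 115.2 CPM in the next lowest, HGA 7. UQCRFS1 was at 75.95 CPM in HGA 10 and at 319.8 CPM in HGA 5. ATP5G3 was at 197.7 CPM in HGA 10 and at 478.9 CPM in HGA 1. COX5B was high in HGA 9, at 1241 CPM against 861.2 CPM in HGA 6. UQCR11 was high in metastasis 4, at 251.3 CPM against 111 CPM in metastasis 3. NDUFA4L2 was high in HGA 4, at 30.13 CPM against 3.84 CPM in HGA 5, on 48 counts.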

How the results depend on the processing

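For HGA over primary AGASAC the 49 passing members became 27 with the added log2FC threshold of 1, 0, 1 and 0 within extraction batches 5, 6 and 8 (median log2FC 1.109 in batch 6), 21 within file naming series A (9 HGA and 3 primary tumors; 1 primary tumor whose series was not at hand was left out), and, in alternatives chosen after seeing the data, 24 without the primary tumors over 100 CPM of muscle markers and 16 in neutered dogs alone; all of these used fewer samples or a stricter threshold. With library size alone, which moved the median of all genes from -0.03 to -0.32, the members' median was 0.5214, with 36 higher and 1 lower (NDUFAF7), and all genes split into 1339 higher and 2717 lower in place of 1936 and 1789. Leaving out 1 library gave 47 to 51 members and medians of 0.78 to 0.86, with 1794 to 2111 of all genes higher. DESeq2 gave 49, RLE factors 48, Benjamini-Hochberg adjustment 60 (59 higher and 1 lower) and all 15 AGASAC samples 55. Of all genes tested, 2531 of 24332 were higher with DESeq2 and 1850 of 12070 with RLE factors. The numbers were 2883 of 12070 with Benjamini-Hochberg adjustment and 2313 of 12764 with all 15 AGASAC samples. For HGA over metastasis the 20 members became 8 with library size alone, 36 with DESeq2 and 51 with Benjamini-Hochberg adjustment. Of all genes tested, 816 of 13195, 1721 of 23678 and 2245 of 13195 were higher in these fits, in place of 1137 of 13195. Leaving out 1 library gave 6 to 38 members and medians of 0.79 to 0.96, with 721 to 1455 of all genes higher. For metastasis over primary tumor the count was 0 throughout, 0 with dogs paired in a replicate block too (median -0.0097), and the median ran from -0.08 to 0.09 without 1 library. With library size alone 66 of 77 members were above 0, in place of 72. Among the named members checked one by one, log2FC changed sign for SDHA with library size alone (-0.01189) and for COX6A2 within extraction batch 6 (-0.2021) and in neutered dogs alone (-0.07648); the cause was not tested. Among 24 named members, 814 of 911 values under 38 alternatives kept direction and side of the threshold, 81 fell below it, 13 rose past it and 3 changed sign. Subunits encoded in mitochondrial DNA were not run. The lowest depth, 1562347 counts, puts 3 counts at 1.88 CPM, and COX4I2, NDUFA4L2 and ATP5I were too low to be tested against primary tumors.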

Other observations

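Among the mitochondrial ribosome genes, the 3 with the largest log2FC of HGA over primary AGASAC depended in part on 1 library, HGA 4. MRPL2 was at 1151 CPM in HGA 4 and at 64.3 to 127 CPM in the other 9 HGA, MRPS10 at 536 CPM and 21 to 55.2 CPM, and MRPL14 at 613 CPM and 42.8 to 177 CPM. Without HGA 4 the log2FC of MRPL2 changed from 2.14 to 1.02 (edgeR BY-adjusted p = 0.00476), that of MRPS10 from 1.92 to 0.72 (edgeR BY-adjusted p = 0.0304) and that of MRPL14 from 1.70 to 1.19 (edgeR BY-adjusted p = 0.000649). The 3 genes are neighbors on dog chromosome 12 in the RefSeq gene order, which was taken from another assembly (UU_Cfam_GSD_1.0) than the one used for counting. Of the protein-coding genes from MRPS10 to MRPL14 in that order, 26 had a median of at least 10 CPM in the other 9 HGA. HGA 4 exceeded that median more than 5-fold in 23 of the 26, by a median of 10.8-fold, and was the highest of all 25 libraries in 25 of them. The same limit was passed by 0.876% of the 9245 rows at that level in the whole table and by 0 of the 76 respiratory chain rows. This stretch was chosen after its values were seen, and no explanation was tested.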
